A study of Mus musculus with 15 samples.

Results

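The genes described here are 10 noncoding hosts of small nucleolar RNAs (snoRNAs): Gas5, Snhg1, Snhg3, Snhg5, Snhg6, Snhg8, Snhg12, Snhg15, Snhg17 and Snhg20. They were taken by symbol from a count table of 40402 genes. All 10 had a row and all 10 passed the filter on low values, which kept the 17647 genes with at least 1 CPM (a count scaled to the library total) in at least 1 library.

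The cells were 4T1, a mouse mammary carcinoma line from a BALB/c mouse that is used as a model of triple-negative breast cancer, and the labels give their genotype as WT. Untreated cells were compared with cells given blackberry extract (BLA), blueberry extract (BLU), or gold nanoparticles made with the blackberry (BLA-A) or blueberry (BLU-A) extract, and all 5 conditions were cultured in the same medium with fetal bovine serum. Each condition has 3 columns of counts, but these 3 columns differ less than random draws of reads would (chi-square per degree of freedom from 0.0951 to 0.475), so they were averaged and each condition counts as 1 library. Totals ran from 25613778 to 26956442 counts per library, and 3 counts, the limit that a count of 0 allows, are 0.109 to 0.129 CPM on the TMM scale used for all levels here. The labels give every sample its own batch date, so batch and condition cannot be told apart. The epithelial markers Krt8, Krt18, Krt7, Epcam and Cdh1 summed to between 937 and 1676 CPM in the 5 libraries. The immune markers summed to 0.561 to 3.72 CPM and the endothelial markers to 1.51 to 2.72 CPM, and no single immune, endothelial or stromal marker passed 2.20 CPM except Pdgfra, which carried most of the 87.3 to 102 CPM of the stromal list. The BLA-A library stood apart in short RNAs made by RNA polymerase III: Rn7sk was at 3470 CPM there and at 58.8 to 93.7 CPM elsewhere, and Rmrp was at 898 CPM there and at 52.3 to 68.9 CPM elsewhere.

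A snoRNA host is transcribed, spliced, and then used for its introns: the snoRNAs are trimmed out of the introns and guide chemical modification or cutting of ribosomal RNA. Box C/D snoRNAs guide ribose methylation and box H/ACA snoRNAs guide pseudouridylation. The exons of Gas5 and several other hosts hold only short reading frames, so that ribosomes which engage them mark the RNA for nonsense-mediated decay, and many hosts begin with a run of pyrimidines (a 5′ terminal oligopyrimidine, or TOP, tract), as ribosomal protein mRNAs do. Gas5, named for its rise in growth-arrested cells, is known to accumulate when translation slows.

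The snoRNAs these hosts carry are shown by 3 examples, since they set the hosts apart from other long noncoding RNAs. In GENCODE M39 on GRCm39, 32 snoRNA or small Cajal body RNA genes lie inside the 10 hosts on the same strand, 9 of them in Gas5 and 8 in Snhg1. Snord80, in an intron of Gas5, and Snord50a, in Snhg5, have a box C core (TGATGA) and a box D (CTGA), in capitals. Snora24, in Snhg8, has an ACA 3 bases from its end, in capitals.
Snord80 (chr1:160865171-160865251, + strand): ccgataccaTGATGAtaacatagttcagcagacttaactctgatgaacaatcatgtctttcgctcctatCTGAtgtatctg
Snord50a (chr9:88403582-88403653, - strand): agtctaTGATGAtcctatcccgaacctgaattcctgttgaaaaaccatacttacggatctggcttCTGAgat
Snora24 (chr3:123301586-123301715, - strand): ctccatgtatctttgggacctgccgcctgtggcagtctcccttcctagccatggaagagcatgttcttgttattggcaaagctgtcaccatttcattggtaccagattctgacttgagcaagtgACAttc
Of the 32 nested genes, 16 held both boxes and another 7 held the ACA without them. Gas5 held 7 with both boxes, Snhg1 held 5, Snhg5 held 2 and Snhg6 held 1, while both snoRNAs of Snhg3 and the single one of Snhg8, Snhg15 and Snhg20 ended in the ACA form. Snora73a and Snora73b, the U17 snoRNAs of Snhg3, are both 205 bases long and share 198 of them. The 3 snoRNAs of Snhg17 held neither form by these letters.

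The nested snoRNAs themselves gave no signal in these files. Of the 32, 29 have a row in the count table, and all 29 are listed at 0 in every library. Of all 146 rows named Snord or Snora, 142 are listed at 0. The host values below are therefore reads assigned to the host row only, which the authors counted over whole genes, introns included.

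The starts of the hosts are shown because TOP tracts tie some of them to ribosomal protein mRNAs. Each window runs from 20 bases before the annotated start to 20 bases from it (RefSeq, GRCm38.p6). Capitals mark a C followed by at least 4 C or T that begins within 5 bases of the start.
Gas5, downstream start (chr1:161035146-161035185, + strand): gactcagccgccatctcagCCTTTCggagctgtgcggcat
Snhg8 (chr3:123508317-123508356, - strand): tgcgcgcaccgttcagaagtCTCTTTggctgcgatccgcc
Snhg12 (chr4:132308658-132308697, + strand): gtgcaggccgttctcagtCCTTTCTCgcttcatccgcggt
Snhg3 (chr4:132353667-132353706, - strand): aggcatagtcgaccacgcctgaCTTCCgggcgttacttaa
Snhg5 (chr9:88522878-88522917, - strand): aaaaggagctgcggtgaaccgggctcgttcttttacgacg
Snhg1 (chr19:8723467-8723506, + strand): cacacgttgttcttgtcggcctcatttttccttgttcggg
Of the 9 members with a RefSeq start, these 4 held the tract (44.4%), against 21.2% of the 27025 genes in the table. Gas5 has 2 listed starts, and the upstream one held none. Snhg1, Snhg5, Snhg15, Snhg17 and Snhg20 held none within 5 bases. In Snhg5 the tract CTTTT begins at an offset of 9 bases from the start. The E-box CACGTG, searched over the 300-base window on either strand since it is its own reverse complement, was found in Snhg15 alone, 1 of 9 members (11.1%) against 8.09% of genes. These matches are letters in a window and were not tied to any binding or initiation measurement.

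Gas5 was higher than untreated in all 4 treated libraries, and it was the only member with one sign throughout. The gene lies at chr1:160861793-160866118 on the plus strand. Its level was 19.6 CPM in untreated cells, 25.6 with BLA, 23.5 with BLU, 34.9 with BLA-A and 22.9 with BLU-A. Untreated was the lowest library and BLA-A the highest, and the 95% interval for counting error in BLA-A (32.5 to 37.3 CPM) did not overlap that of any other library. Between them, BLA, BLU and BLU-A followed in that order, and neighbours among the 3 did not differ beyond counting error. On log2(CPM + 0.5), the difference from untreated was 0.81 in BLA-A (0.67 to 0.99, counting error only), 0.38 with BLA, 0.25 with BLU and 0.22 with BLU-A. Scaling by total counts puts the BLA-A value at 0.62. Over all genes tested, 19.4% were higher in all 4 treated libraries and 19.3% were lower in all 4, so 1 of 10 members higher and 0 of 10 lower is not above that background. Gas5 made up 12.0% of the summed level of the 10 hosts in untreated cells and 22.9% in BLA-A. In BLA-A, Rn7sk and Rmrp were also far above their other values (above), and their part in the Gas5 value was not tested.

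**Figure D1:**
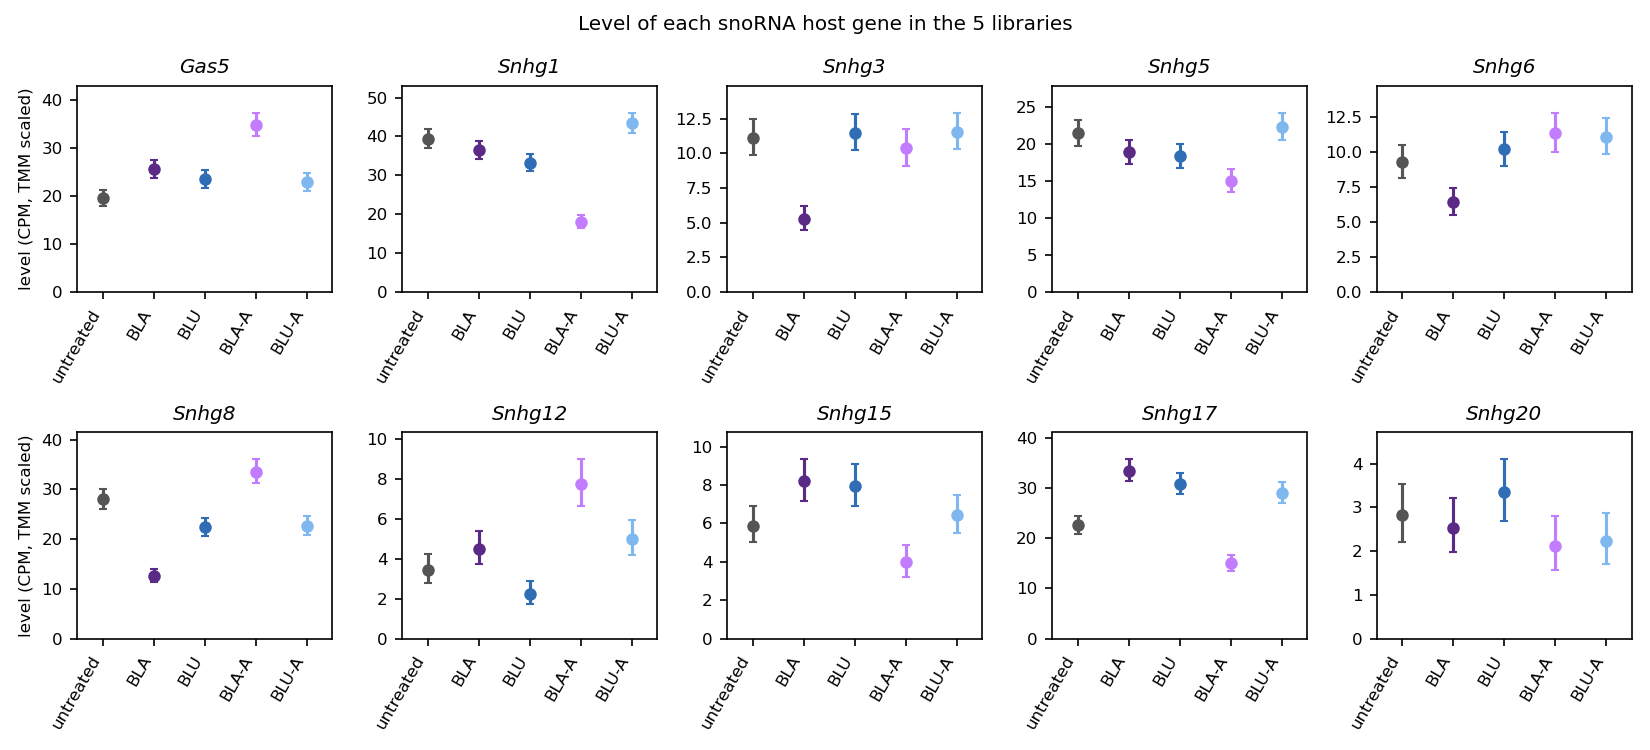
Level of each host gene (y axis, TMM-scaled CPM, from 0) in the untreated, BLA, BLU, BLA-A and BLU-A libraries, 1 library each. Points are levels and bars are Poisson 95% intervals for counting error only. Gas5 sits between 19.6 and 34.9 CPM with BLA-A highest, while Snhg1, at 18.1 CPM, and Snhg17, at 15.0 CPM, are lowest in BLA-A.

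Among the other hosts of box C/D snoRNAs, Snhg1 and Snhg5 were lowest in BLA-A, opposite to Gas5. Snhg1 (chr19:8700319-8703812, plus strand) carries Snord22 and 7 further snoRNAs, and is widely studied as a long noncoding RNA that is abundant in tumours. It was at 39.4 CPM in untreated cells, 36.6 with BLA, 33.3 with BLU, 18.1 with BLA-A and 43.5 with BLU-A. The BLA-A level was less than 0.6 of every other library's, while untreated and BLA did not differ beyond counting error. Its log2 fold change in BLA-A was -1.10 (-1.29 to -0.96), and the others lay between -0.24 in BLU and 0.14 in BLU-A. Snhg5 (chr9:88377321-88405615, minus strand), host of the U50 snoRNAs, was at 21.4 CPM in untreated cells, 18.9 with BLA, 18.3 with BLU, 15.0 with BLA-A and 22.3 with BLU-A. Its order over the 5 libraries was the same as that of Snhg1, in a narrower range (1.49-fold against 2.41-fold). In Snhg5, however, BLU-A and untreated did not differ beyond counting error, and neither did BLA and BLU.

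Snhg6, which carries Snord87, had a different order. Its levels were 9.27 CPM in untreated cells, 6.42 with BLA, 10.2 with BLU, 11.4 with BLA-A and 11.1 with BLU-A. BLA was below the rest, and the other 4 libraries did not differ from their neighbours in order beyond counting error, although BLA-A did from untreated (0.28, 0.04 to 0.55). Its log2 fold change in BLA was -0.50 (-0.82 to -0.24). Snhg6 spans chr1:9926809-10014504 on the minus strand, where it overlaps Sgk3 and Mcmdc2 on the other strand. Sgk3 differed from untreated by 0.52 in BLA, opposite in sign to Snhg6. Whether the authors' counting kept the strands apart is not given in the sources used here, so shared stretches could move reads between such rows. All spans and overlaps in this report are those of GENCODE. The authors counted over RefSeq gene features, whose spans may differ.

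Among the hosts of box H/ACA snoRNAs, Snhg3 and Snhg8 were lowest in BLA. Snhg3 (chr4:132075325-132080997, minus strand) carries the pair of U17 snoRNAs, which act in cutting of the ribosomal RNA precursor. It was at 11.1 CPM in untreated cells, 5.29 with BLA, 11.5 with BLU, 10.4 with BLA-A and 11.6 with BLU-A. BLA stood alone, since no neighbouring pair among the other 4 differed beyond counting error. The log2 fold change in BLA was -1.0 (-1.37 to -0.78). Snhg3 lies wholly within the span of Rcc1 on the same strand, so the rows may compete for reads. Rcc1, the guanine nucleotide exchange factor of Ran, differed from untreated by -0.46 in BLA, and by -0.62 in BLA-A, where Snhg3 differed by -0.10. Snhg8 (chr3:123301192-123302578, minus strand) was at 28.1 CPM in untreated cells, 12.6 with BLA, 22.5 with BLU, 33.6 with BLA-A and 22.7 with BLU-A. It was thus lowest in BLA and highest in BLA-A, and BLU and BLU-A did not differ beyond counting error. Its log2 fold change was -1.13 (-1.35 to -0.97) in BLA and 0.25 (0.11 to 0.40) in BLA-A, where scaling by total counts gives 0.06.

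Snhg12 had the widest range of the 10 members. Snhg12 (chr4:132035905-132038762, plus strand), host of Snora16a, Snora44, Snora61 and Snord99, was at 3.45 CPM in untreated cells, 4.52 with BLA, 2.25 with BLU, 7.77 with BLA-A and 5.02 with BLU-A, a 3.45-fold range. The library with the lowest level rests on 62 counts and the highest on 180. The log2 fold change in BLA-A was 1.06 (0.80 to 1.55). Both nanoparticle libraries were above untreated beyond counting error, and BLU was below it, at -0.52 (-1.11 to -0.14). BLA was at 0.34 (-0.01 to 0.79), and BLA and BLU-A did not differ beyond counting error.

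Snhg15 and Snhg17 shared one order, and their 4 log2 fold changes against untreated were the closest of the 45 pairs of members, with a root mean square difference of 0.14. Snhg15 (chr11:6473829-6478870, minus strand), a short-lived RNA that carries Snora9, was at 5.89 CPM in untreated cells, 8.19 with BLA, 7.95 with BLU, 3.97 with BLA-A and 6.45 with BLU-A. Snhg17 (chr2:158195620-158204194, minus strand) was at 22.5 CPM in untreated cells, 33.4 with BLA, 30.8 with BLU, 15.0 with BLA-A and 28.9 with BLU-A. Both were highest in BLA, next in BLU, and lowest in BLA-A. BLA and BLU did not differ beyond counting error in either gene. The same held for BLU-A and untreated in Snhg15, and for BLU and BLU-A in Snhg17. The log2 fold changes of Snhg17 were 0.56 (0.42 to 0.72) in BLA, 0.44 in BLU, -0.57 (-0.78 to -0.40) in BLA-A and 0.36 in BLU-A, and those of Snhg15 were 0.44, 0.40, -0.52 and 0.12. Snhg1 and Snhg12 were the pair farthest apart, at 1.13. The 4 values of a gene share the untreated library.

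Snhg20 (chr11:116966617-116969792, plus strand), host of a small Cajal body RNA gene, had the lowest counts. It was at 2.81 CPM in untreated cells, 2.53 with BLA, 3.34 with BLU, 2.11 with BLA-A and 2.23 with BLU-A, from 49 to 92 counts. Its log2 fold changes lay between -0.34 and 0.21, and all 4 counting intervals included 0, so a difference from untreated was not detectable at this depth.

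Levels of different hosts were compared per kilobase of the canonical GENCODE transcript. In untreated cells Snhg1 was at 34.8 CPM per kb, Snhg3 at 33.5, Gas5 at 29.3 and Snhg8 at 28.6, followed by Snhg5 at 14.5 and Snhg17 at 7.43. Snhg20, Snhg6 and Snhg15 lay between 5.90 and 3.36, and Snhg12 was at 1.22. In BLA-A, Gas5 led at 52.1 CPM per kb and Snhg1, at 16.0, was below Snhg8 and Snhg3. Since the authors counted introns and the transcripts of these genes vary widely in length, these values order the genes only roughly. Snhg12 was divided by a 1-exon transcript of 2842 bases in a span of 2858. Snhg3 was divided by 332 bases in a span of 5673. Their places thus depend on which transcript is called canonical.

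Against untreated, 4 of 10 hosts were higher with BLA, 6 with BLU, 4 with BLA-A and 8 with BLU-A. In BLA, 2 of 10 members had a log2 fold change over 1 in size (Snhg3 and Snhg8, both lower), against 16.5% of all genes. In BLU, 0 of 10 did, against 10.3%. In BLA-A, 2 of 10 did (Snhg1 lower, Snhg12 higher), against 20.9%, and in BLU-A 0 of 10 did, against 7.85%. At 0.5 in size the counts were 3 with BLA, 1 with BLU, 5 with BLA-A and 0 with BLU-A, against 42.6%, 32.9%, 49.5% and 24.9% of genes. The members' median was -0.12 with BLA, 0.09 with BLU, -0.22 with BLA-A and 0.13 with BLU-A, beside all-gene medians between -0.01 and 0.00. By total counts the BLA-A median was -0.39, beside an all-gene median of -0.18. The summed level of the 10 hosts lay between 152 CPM (BLA-A) and 177 CPM (BLU-A), with 164 CPM in untreated cells, so members that were higher and members that were lower nearly offset each other.

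**Figure D2:**
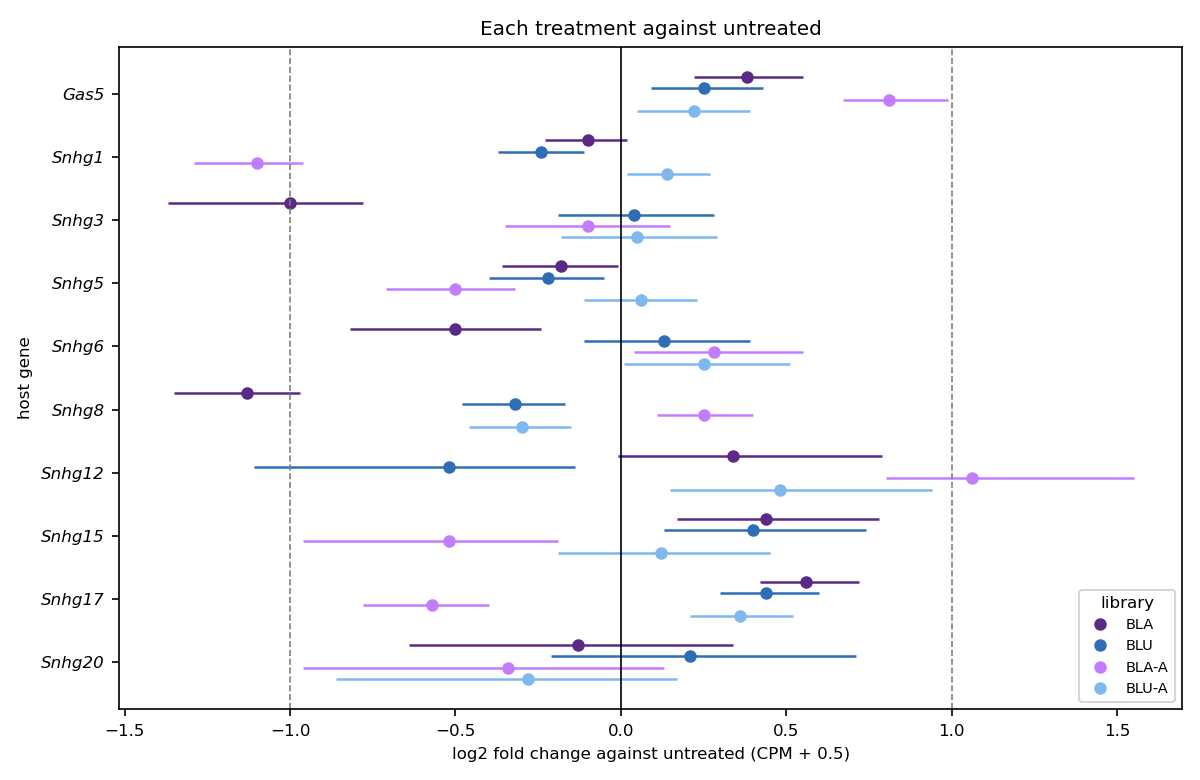
Log2 fold change of each host gene against the untreated library (x axis, on CPM + 0.5) for BLA, BLU, BLA-A and BLU-A. Bars are 95% intervals for counting error only and dashed lines mark 1 in size. All 4 Gas5 points lie to the right of 0, Snhg3 (-1.0) and Snhg8 (-1.13) reach the left line in BLA, and Snhg1 (-1.10) and Snhg12 (1.06) pass opposite lines in BLA-A.

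BLA-A was the library in which the hosts most often took their extreme value. It held the highest level for 4 members (Gas5, Snhg6, Snhg8 and Snhg12) and the lowest for 5 (Snhg1, Snhg5, Snhg15, Snhg17 and Snhg20), 9 of 10 in all, while over all genes 62.0% took their highest or lowest level there. For Snhg6 and Snhg20 that place was not resolved, since BLA-A and BLU-A did not differ beyond counting error. In BLA-A against BLU-A, Snhg6 went from 0.03 to -0.15 by total counts. Snhg20 went from -0.06 to 0.01 there by DESeq2 size factors. The share over all genes takes no account of such ties either. BLA was extreme for 5 of 10 members, against 46.9% of genes, untreated for 1 of 10, against 39.0%, BLU for 2 of 10, against 31.5%, and BLU-A for 3 of 10, against 20.6%. The median range of a member over the 5 libraries was 1.01 on the log2 scale, beside 0.97 for all genes. Without BLA-A it was 0.53, beside 0.64. Without BLA-A, the range fell from 2.41-fold to 1.31-fold for Snhg1 and from 1.78-fold to 1.31-fold for Gas5, while Snhg3 kept its 2.18-fold range, which BLA sets.

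With 1 library per condition, the only test across libraries was that of the 4 treated libraries against the untreated one. In edgeR's quasi-likelihood fit, adjusted by Benjamini-Hochberg over all genes, 0 of 10 members passed an adjusted p of 0.05, beside 0.0227% of genes (4 of 17647), and 0 of 10 had an unadjusted p under 0.05. DESeq2 also called 0 members. Gas5 had the smallest p of the 10, 0.249, with a log2 fold change of 0.44 (SE 0.36) and higher in 4 of 4 treated libraries, and an adjusted p of 0.999. Without BLA-A, Snhg17 had the smallest unadjusted p in the edgeR quasi-likelihood test, 0.0669, at a log2 fold change of 0.46 and an adjusted p of 0.517. The fit had 3 residual degrees of freedom and treats the 4 treatments as replicates of one another.

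The comparison of nanoparticle with extract sets each gold formulation beside the berry extract it was made with. No condition had gold without extract, and the paper describes washing unbound plant compounds off the particles. Gold and the amount or make-up of the extract therefore cannot be told apart here. The values for the hosts spread more widely for blackberry than for blueberry. Between BLA-A and BLA, 2 of 10 members passed 1 in size, against 24.5% of genes: Snhg8 was higher in BLA-A by 1.38 (1.23 to 1.60) and Snhg17 lower, at -1.13 (-1.34 to -0.98). Snhg1 was at -1.0 and Snhg15 at -0.96, just inside that size. Snhg3 was higher in BLA-A by 0.91, Snhg6 by 0.77, Snhg12 by 0.72 and Gas5 by 0.44 (0.28 by total counts), and Snhg5 was at -0.32 and Snhg20 at -0.21. At 0.5 in size, 7 of 10 members passed, 4 higher and 3 lower, against 53.9% of genes. Between BLU-A and BLU, 1 of 10 passed 1 in size, against 6.76% of genes: Snhg12, at 1.00 (0.71 to 1.62). No other member passed 0.5 there (1 of 10, against 22.7% of genes). Gas5 differed by -0.03 (-0.20 to 0.13) and Snhg8 by 0.02 (-0.15 to 0.18) between BLU-A and BLU.

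**Figure D3:**
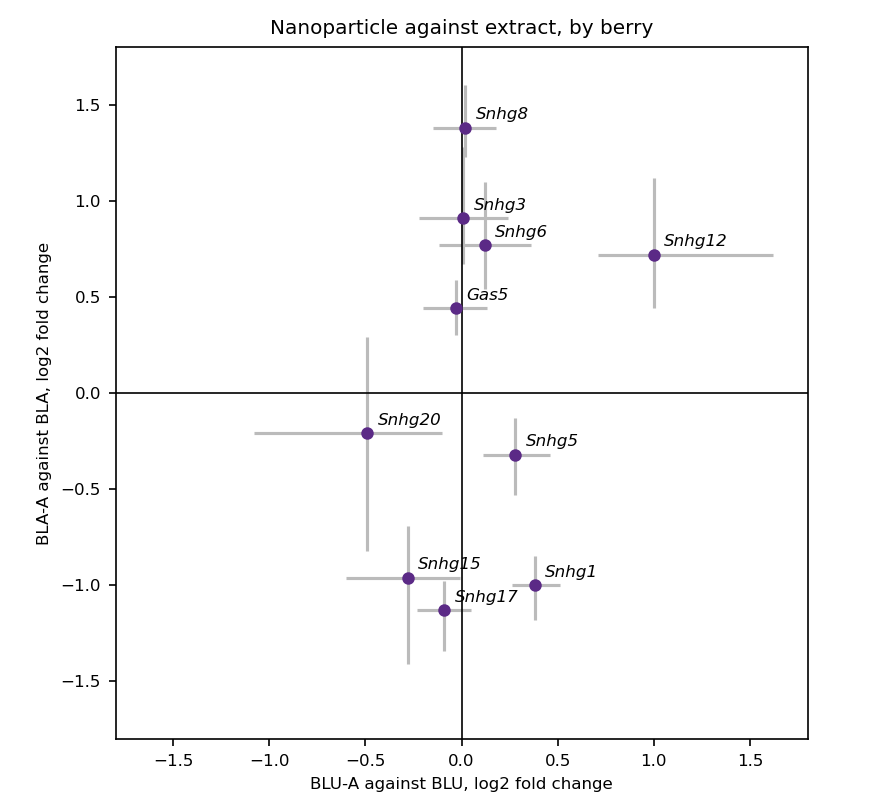
Log2 fold change of BLA-A against BLA (y axis) and of BLU-A against BLU (x axis) for the 10 host genes, on equal scales. Bars are 95% intervals for counting error only. The points spread from -1.13 (Snhg17) to 1.38 (Snhg8) along the blackberry axis and, Snhg12 apart, stay within 0.5 of 0 along the blueberry axis.

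The members were also read by whether the 5-base letter rule above marked a tract at a listed start. This split of the fold changes was not planned. The plan covered only the share of starts with a tract. A member without a match was not shown to lack a TOP tract, so the sets are those of the rule only. Between BLA-A and BLA, the 4 with a tract were higher in BLA-A (0.44 to 1.38, median 0.81) and the 5 without were lower (-1.13 to -0.21, median -0.96). Against untreated, the tract set ran from -0.10 (Snhg3) to 1.06 in BLA-A and from -1.13 to 0.38 in BLA (median -0.33), where Snhg3 and Snhg8 were low. The set without ran from -1.10 to -0.34 in BLA-A and from -0.18 to 0.56 in BLA (median -0.10). Over all genes tested that have a RefSeq start, the medians in BLA-A against BLA were -0.05 with a tract (3152 genes) and -0.07 without (10171 genes). Between BLU-A and BLU the members' medians were 0.01 with a tract and -0.09 without. Letting the tract begin within 10 bases, a choice made after the windows were seen, moves Snhg5 to the first set, which then ran from -0.32 to 1.38 in BLA-A against BLA. These are values of 9 genes in 1 pair of libraries, given as a description.

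Blackberry and blueberry were also compared within each formulation. Between BLA and BLU, 1 of 10 members passed 1 in size, against 10.6% of genes: Snhg3 was lower in BLA, at -1.05 (-1.41 to -0.83). Snhg8 at -0.81, Snhg6 at -0.63 and Snhg12 at 0.87 passed 0.5 as well (4 of 10, against 28.1%). Gas5, Snhg1, Snhg5, Snhg15 and Snhg17 differed by 0.04 to 0.13. Between BLA-A and BLU-A, 1 of 10 passed 1, against 19.2%: Snhg1, at -1.24 (-1.43 to -1.10). At 0.5, 7 of 10 did (48.3% of genes), with Gas5 higher in BLA-A by 0.60, Snhg12 by 0.58 and Snhg8 by 0.55, and Snhg17 at -0.93, Snhg15 at -0.64 and Snhg5 at -0.56.

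Protein-coding genes that overlap Snhg1 and Gas5 were read beside them. Slc3a2, the heavy chain of the cystine and leucine transporters, overlaps Snhg1 by 790 bases on the other strand. It was at 61.7 CPM in untreated cells, 62.5 with BLA, 57.6 with BLU, 144 with BLA-A and 52.3 with BLU-A, so it was highest where Snhg1 was lowest. Its log2 fold change in BLA-A was 1.21. Zbtb37 overlaps Gas5 on the other strand by 627 bases, and it differed from untreated by -0.25 in BLA-A, where Gas5 differed by 0.81. The part of these overlaps in the host values was not tested.

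The genes whose pattern was most like that of Gas5 were taken from 9764 genes with a mean of at least 10 CPM, by the root mean square difference of the 4 log2 fold changes against untreated. The closest 5 were Mbd6, a methyl-CpG-binding domain protein (0.05), U2af1, which binds the 3′ splice site (0.05), Hs1bp3 (0.06), Pan2, a subunit of a poly(A) deadenylase (0.06), and Samd8 (0.06). U2af1 was at 24.5 CPM untreated and then 32.2, 29.7, 41.0 and 27.4 CPM under BLA, BLU, BLA-A and BLU-A. Of the other 9 members the closest, Snhg12, differed by 0.43, with 2860 genes nearer to Gas5, and Snhg1 differed by 1.02, with 9135 nearer.

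Of 11 other noncoding hosts listed, 7 passed the filter, and Snhg4 and Snhg11 are listed at 0 in every library. Their median was -0.18 with BLA, -0.21 with BLU, -0.12 with BLA-A and -0.17 with BLU-A. Zfas1, host of the SNORD12 family, was at 21.2 CPM in untreated cells and 17.3, 15.5, 12.2 and 18.7 CPM under BLA, BLU, BLA-A and BLU-A. Snhg14, the long transcript of the imprinted Prader-Willi region, stayed between 96.7 and 137 CPM. Snhg7, which lies below the mean level set for naming and was singled out after its values were seen, was at 4.20 CPM untreated and then 9.51, 6.13, 14.2 and 9.32 CPM in the same order, higher in all 4 as Gas5 was.

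Protein-coding snoRNA hosts, mostly genes of the ribosome and nucleolus, were more often below untreated than above it. All 27 listed passed the filter, and 24 were below 0 with BLA, 23 with BLU, 17 with BLA-A and 21 with BLU-A. Their medians were -0.42, -0.27, -0.22 and -0.14, beside all-gene medians between -0.01 and 0.00. The BLA-A count moved with scaling. It was 16 by DESeq2 size factors and 20 by total counts, where the all-gene median was -0.18. Past 0.5 in size there were 9 in BLA (all lower), 2 in BLU (all lower), 11 in BLA-A (4 higher, 7 lower) and 2 in BLU-A (1 higher, 1 lower), of 27 each, against 42.6%, 32.9%, 49.5% and 24.9% of all genes in either direction. Ncl, the abundant nucleolar protein nucleolin, was at 2072 CPM untreated and then 1269, 1583, 1069 and 1647 CPM under BLA, BLU, BLA-A and BLU-A. Dkc1, the pseudouridine synthase of H/ACA particles, was at 148 CPM untreated and then 80.2, 108, 64.6 and 125 CPM. Rpl3 departed from the rest, at 27.4 CPM in untreated cells, 10.9 in BLA-A and 121 in BLU-A. Rps20 was at 275 CPM in untreated cells and 145 in BLA.

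Of 19 genes for the proteins that bind and assemble snoRNAs, 15 were below 0 with BLA, 15 with BLU, 11 with BLA-A and 14 with BLU-A. Their medians were -0.46, -0.24, -0.27 and -0.10, beside all-gene medians between -0.01 and 0.00. By total counts the BLA-A count was 13. In BLA-A, 11 of 19 were past 0.5 in size, 5 higher and 6 lower, against 49.5% of all genes. Dkc1 and Nop56 are in both this list and the preceding one. Nop58, a core protein of box C/D particles, was at 360 CPM in untreated cells and 168 in BLA-A (-1.09). Gar1, of the H/ACA particles, was at 10.3 CPM in untreated cells and 22.7 in BLA-A (1.10), and Nhp2, of the same particles, was at 35.4 CPM in untreated cells and 20.0 in BLA (-0.81).

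Factors of nonsense-mediated decay, the route that removes spliced Gas5, had medians of 0.05, 0.09, 0.15 and 0.02 under BLA, BLU, BLA-A and BLU-A over 14 genes. By total counts the BLA-A median of these factors was -0.04, beside an all-gene median of -0.18. In BLA-A, 4 of 14 passed 0.5 in size, 2 higher and 2 lower, against 49.5% of all genes. Rbm8a, the Y14 subunit of the exon junction complex, was at 18.4 CPM in untreated cells, 8.26 in BLA and 64.5 in BLA-A. Its partner Magoh was at 30.6 CPM in untreated cells and 14.3 in BLA-A, and Upf3b, which links that complex to the decay machinery, was at 38.8 and 17.7 CPM in these libraries. Smg6, the endonuclease of the route, was at 145 CPM untreated and then 282, 235, 154 and 220 CPM under BLA, BLU, BLA-A and BLU-A.

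Of 5 stress mRNAs known as targets of that decay, Atf3 was above untreated in every treated library, at 43.2 CPM in untreated cells and 101, 64.4, 146 and 59.4 CPM under BLA, BLU, BLA-A and BLU-A. Its order over the libraries was that of Gas5, but the share of all genes with that order was not taken. Ddit3 was at 14.1 CPM in untreated cells and 31.2, 21.2, 19.1 and 20.4 CPM, and Atf4 was lower throughout, at 294 CPM in untreated cells and 176 in BLA-A. Gadd45a was at 76.7 CPM untreated and 16.1 in BLA-A (-2.22), with the other 3 libraries between 77.0 and 95.2. The list's median was 0.60 in BLA and -0.74 in BLA-A.

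The list for the mTOR pathway and translation control, which governs TOP mRNAs, had medians of 0.00 with BLA, 0.02 with BLU, 0.15 with BLA-A and 0.00 with BLU-A over 15 genes. By total counts its BLA-A median was -0.04, beside an all-gene median of -0.18. At 0.5 in size, 2 passed in BLA, 1 in BLU, 6 in BLA-A (5 of them higher) and 0 in BLU-A, of 15 each, against 42.6%, 32.9%, 49.5% and 24.9% of all genes. Larp1, which binds the cap and first bases of TOP mRNAs, was at 269 CPM in untreated cells and 442 in BLA-A (0.72). Akt1s1, an inhibitory subunit of mTORC1, was at 19.8 and 54.1 CPM in these libraries, and Eif4ebp2, a repressor of cap-dependent translation, at 24.6 and 64.7 CPM. Rptor was at 199 CPM in untreated cells and highest in BLA, at 325.

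**Figure D4:**
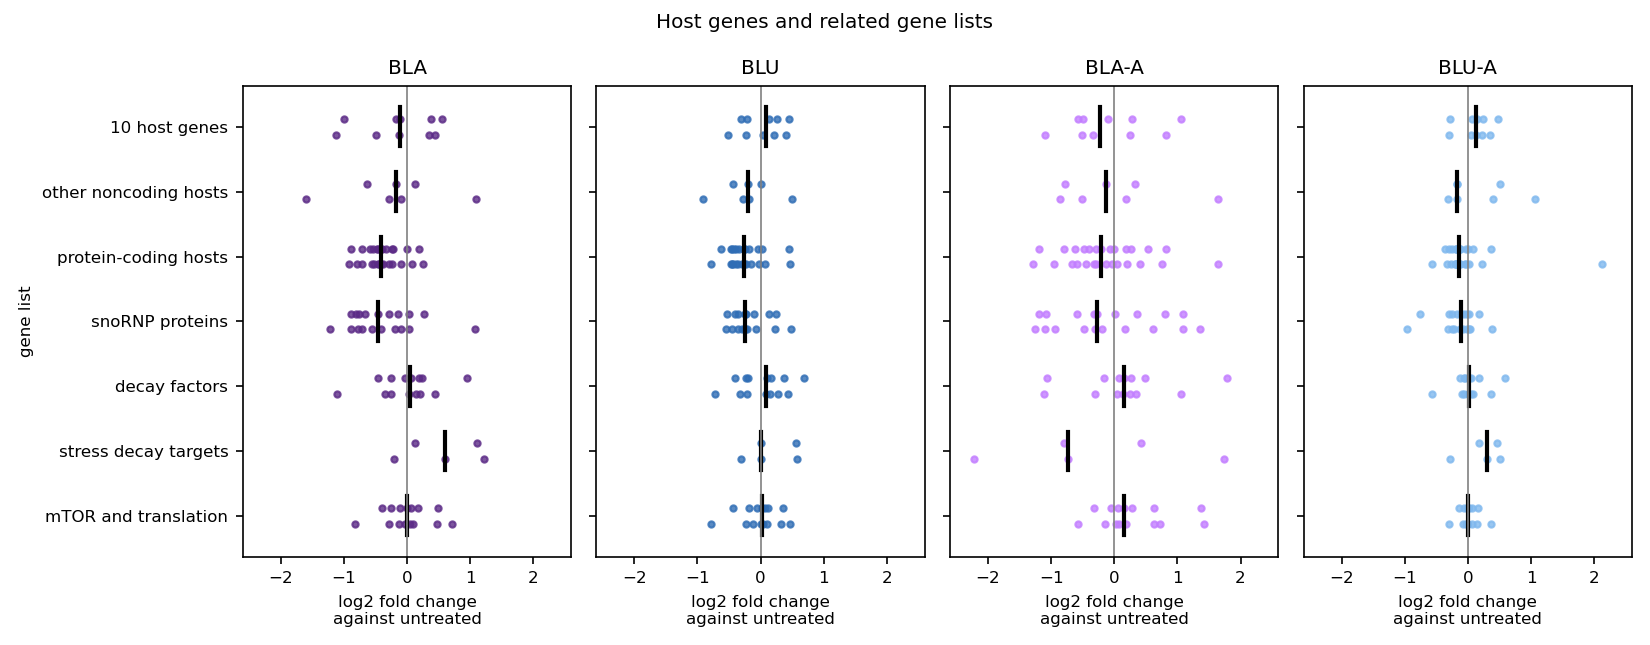
Log2 fold change against untreated (x axis) for the 10 host genes and 6 related gene lists (rows), with 1 panel per treated library. Points are genes and black bars are list medians. The medians of the protein-coding hosts (-0.42) and snoRNP proteins (-0.46) are lowest in BLA, whose host gene median is -0.12, and the points are most spread in BLA-A.

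Among nuclear and other noncoding RNAs, Malat1 and Neat1 were above untreated in every treated library. Malat1 was at 1616 CPM untreated and then 3707, 3117, 3087 and 2289 CPM under BLA, BLU, BLA-A and BLU-A, and Neat1 was at 193 and at 667, 475, 242 and 403 CPM. Gas5 shared that sign in all 4 treatments, but its highest level was in BLA-A and theirs was in BLA. Of the 7 genes listed, 5 were past 0.5 in size in BLA-A and 4 in BLA, all higher, against 49.5% and 42.6% of all genes in either direction. The part of such nuclear or short RNAs in the host values was not tested.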

How the data were processed

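Total RNA of 4T1 cells was depleted of ribosomal RNA and reverse transcribed with random and oligo-dT primers. The authors aligned reads to GRCm39 with STAR and deposited raw counts per gene over whole gene features, in 15 columns, 3 per condition. The labels number the 3 as replicates, and the study's supplement lists 3 read files per condition under a heading for subset reads. They were averaged and rounded here because they differ by less than sampling noise. The labels' replicate numbers did not pair the samples (mean correlation of deviations -0.0028 over 30 pairs). Other deposited tables hold the authors' own fold changes, p-values and enrichment scores and were not used.

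Counts were scaled by TMM in edgeR 4.0.16 (R 4.3.3). The filter kept a gene that reached 1 CPM in any library, and log2 fold changes used CPM + 0.5. Intervals are exact (Clopper-Pearson for ratios, Poisson for levels, 95%) and cover counting error only. The 4 treated libraries were tested against untreated with the edgeR quasi-likelihood test, tested on simulated data. DESeq2 1.42.0 was an alternative. Had the columns been separate samples, p-values would measure the spread between them only.

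The 10 members, the gene lists and the tests were chosen with earlier results of these data known. Named genes were the members, genes that overlap them, for each list up to 4 genes with the largest mean size of change among those with a mean of at least 10 CPM, and the 5 genes nearest to Gas5. Not every overlapping gene is reported here. snoRNA sequences, gene spans and overlaps came from GENCODE M39. Start windows came from RefSeq (GRCm38.p6, 9 of 10 members matched, Snhg6 not in the table). Figures used matplotlib 3.10.9.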

Additional observations from a re-analysis of the deposited data

Results flagged for a closer look

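In 2 members the difference between nanoparticle and extract had opposite signs in the 2 berries, with each counting interval leaving out 0. The share of all genes that meet this rule was not taken, so these 2 cannot be set against a background. Snhg1 was lower in BLA-A than in BLA (-1.0, -1.18 to -0.85) and higher in BLU-A than in BLU (0.38, 0.26 to 0.51), a gap of -1.38 on the log2 scale. Snhg5 was at -0.32 (-0.53 to -0.13) and 0.28 (0.11 to 0.46) in the same comparisons, a gap of -0.60. With 1 library per condition, the difference between berries was not tested in either gene. The BLA-A library also held the lowest level of both genes and the 3470 CPM of Rn7sk, whose part in these gaps was not tested.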

How the results depend on the processing

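By total counts the members' median went from -0.22 to -0.39 in BLA-A against untreated, from 0.11 to -0.03 in BLA-A against BLA, which turns its sign, and from -0.11 to -0.27 in BLA-A against BLU-A. By total counts Gas5 went from 0.81 to 0.62 in BLA-A against untreated, from 0.44 to 0.28 against BLA and from 0.60 to 0.41 against BLU-A, and Snhg8 from 0.25 to 0.06, from 1.38 to 1.23 and from 0.55 to 0.37. Counts of members past 1 in size moved because several members lie at that size. In BLA against untreated the count was 1 without the filter and with a pseudocount of 2 CPM (2 as reported), and 1 to 2 when a replicate column was left out. In BLA-A against untreated it was 1 by total counts, with or without Gm26917, and with 2 CPM. In BLA-A against BLA it was 4 by total counts, with or without Gm26917, with a filter of 10 counts in every library, and with a pseudocount of 0.1 CPM (2 as reported). In BLU-A against BLU it was 0 with 2 CPM, and 0 to 1 without a column. In BLA against BLU it was 0 with 2 CPM, and in BLA-A against BLU-A it was 2 by total counts, with or without Gm26917. Total-count scaling put the median of all genes in BLA-A at -0.18 against untreated, beside -0.01 by TMM. Without BLA-A, the test of treated against untreated called 34 genes in place of 4, and 17 were called by DESeq2, but 0 members under any alternative. With the 15 columns taken as samples, which counts each library 3 times, it called 3553 genes, and 2498 with a replicate block, and 0 members in both. Gas5 then had an adjusted p of 0.0581 without the block and 0.0987 with it, by edgeR. Depth limits Snhg20 and Snhg12, with 49 to 180 counts.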

Other observations

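Only 4 of the 146 rows named Snord or Snora held counts, and none of the 4 lies in a member. Snord118, the U8 snoRNA needed for maturation of the large subunit's ribosomal RNA, had 29 counts in untreated cells, 40 with BLA, 37 with BLU, 20 with BLA-A and 60 with BLU-A. Snord3a, a U3 snoRNA, had 6, 18, 20, 20 and 46 counts in the same order, and Snord13 had 6, 17, 7, 4 and 16. Both the U8 and the U3 row were highest in BLU-A. Snord89 had 37 counts in BLU and 0 to 5 in the other libraries. All 4 are too sparse for more than these values.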
